A study of Mus musculus with 4 samples.

Results

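The common gamma chain cytokine receptors, the kinase Jak3, the transcription factors Stat5a and Stat5b and the feedback inhibitor Cish were examined in CD4 T cells from mice with transfer colitis. The 10 genes were taken by symbol (Il2ra, Il2rb, Il2rg, Il7r, Il4ra, Il21r, Jak3, Stat5a, Stat5b and Cish), and all 10 were found among the 16230 genes of the table. RNA was sequenced from splenic CD3+CD4+ cells, sorted from Rag-/- mice 8 weeks after transfer of naive CD4 T cells. The donor cells were ERafl/fl (both Esr1 alleles flanked by loxP sites, control, 2 libraries) or CD4creERafl/fl (the same alleles with Cre driven from Cd4, described as ERα-deficient, 2 libraries). The latter are called the Cre-labelled libraries. Esr1 encodes estrogen receptor α. Both groups shared the Rag-/- host, which lacks T and B cells of its own and keeps its myeloid and NK cells, and both had colitis. No uninjected or disease-free group was analysed here. The labels give neither the age and sex of the mice, nor any pooling, nor a separate mouse for each library. The p-values thus cover the spread between these 4 libraries alone, and that spread may be technical.

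The receptors for interleukins 2, 4, 7, 9, 15 and 21 all use the common gamma chain, encoded by Il2rg. Each pairs it with a chain of its own, such as the IL-7 receptor α chain or the IL-4 receptor α chain, and the IL-2 receptor adds the β chain Il2rb and, in its high-affinity form, the α chain Il2ra. The gamma chain carries Jak3, while the partner chains carry Jak1. The activated kinases phosphorylate STAT proteins, mainly STAT5 for IL-2, IL-7 and IL-15, STAT6 for IL-4 and STAT3 for IL-21. STAT5 induces Cish and members of the Socs family, which restrain the same receptors. In CD4 T cells, IL-7 maintains resting and memory cells, and IL-2 sustains activated and regulatory cells.

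A pair of sequences bears on how the STAT5 values may be read. Stat5a (NCBI gene 20850, GRCm38 chromosome 11, 100859351 to 100885169) and Stat5b (NCBI gene 20851, chromosome 11, 100780731 to 100859004) are neighbours and near-identical over much of their coding sequence. Their transcripts share 10 identical runs of at least 50 bases, 1098 bases in all, the longest being 324 bases. The stretches below, from GENCODE M21 transcripts on GRCm38, hold the last 60 bases before that run and its first 60. The capital marks the 1 base of 120 at which they differ.
Stat5a: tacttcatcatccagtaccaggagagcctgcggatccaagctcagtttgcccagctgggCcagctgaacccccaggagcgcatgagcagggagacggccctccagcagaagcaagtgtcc
Stat5b: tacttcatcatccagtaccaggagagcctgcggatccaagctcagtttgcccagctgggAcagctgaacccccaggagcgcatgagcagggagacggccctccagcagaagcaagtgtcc
A fragment from such a run is assigned to 1 of the 2 genes by estimate, so the split between Stat5a and Stat5b is uncertain.

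A further sequence concerns STAT binding. The letters TTCNNNGAA read the same on both strands and are the core that STAT5 recognises. They were sought in the 250 bases before those annotated starts that had a window (RefSeq, GRCm38.p6). Windows were held for 9 of the 10 genes, all but Il2rb. Only Il7r had a match, at chr15:9530010-9530018 on the minus strand, and 7.02% of all 32851 windows had one. It begins 142 bases before the annotated start used for the window (position 9529876) and 77 bases before the outermost annotated start of the gene (9529941). The site is printed with 10 bases on either side (chr15:9530000-9530028), the match in capitals.
Il7r: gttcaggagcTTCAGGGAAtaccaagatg
Cish, Il2ra, Il2rg, Il4ra, Il21r, Jak3, Stat5a and Stat5b had no match in these windows, which says only that the letters are not there. For Il21r, Stat5a and Stat5b the windows precede starts inside the annotated gene. The 250 bases before their outermost annotated starts were thus searched in part or not at all.

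For Esr1 the table lists 0.23 FPKM in control 1, 1.96 in the second Cre-labelled library and 0 in the remaining 2 libraries. FPKM is the fragment number scaled to transcript length and library depth. The highest value thus lay in a Cre-labelled library, and the deleted part is not measured apart from the rest of the gene, so Esr1 gives no check of the labels. Depth estimated from the spacing of low values was 509000 to 708000 fragments per library. The sorted cell type was checked against 19 T cell markers. All 19 were lower in both Cre-labelled libraries, with a median log2 fold change of -2.53 and summed levels of 1792 and 1422 FPKM in controls against 404 and 345. The markers were present in every library, except that Txk was listed at 0 in the first Cre-labelled library. All 18 macrophage and monocyte markers were higher there, with summed levels of 141 and 633 FPKM in controls against 3301 and 3829. The part of macrophage RNA in the values below was not tested. The scaling given further on divides by the T cell marker level alone and removes no macrophage RNA. In bulk RNA fewer T cells and less RNA per T cell cannot be told apart.

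6 of the 10 genes had lower values in both Cre-labelled libraries than in both controls: Cish, Il2rb, Il7r, Il2rg, Jak3 and Stat5b. Il4ra and Il21r were higher without overlap, and the ranges of Il2ra and Stat5a overlapped between groups. Over all 12896 genes with a mean of at least 1 FPKM, 25.7% were lower and 23.2% higher without overlap. None of the 10 passed an adjusted p under 0.05 in limma, where 5 genes in the table (0.0388%) were called lower and 2 (0.0155%) higher. At an unadjusted p under 0.05, 4 of the 10 were lower (Cish, Il2rb, Il2rg and Jak3) and 0 higher, against 6.8% and 9.1% of all genes. The median log2 fold change of the 10 was -0.94, against -0.07 over all genes tested. Fold changes are Cre-labelled minus control values of log2(FPKM + 1), a scale that compresses the differences of low genes.

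**Figure D1:**
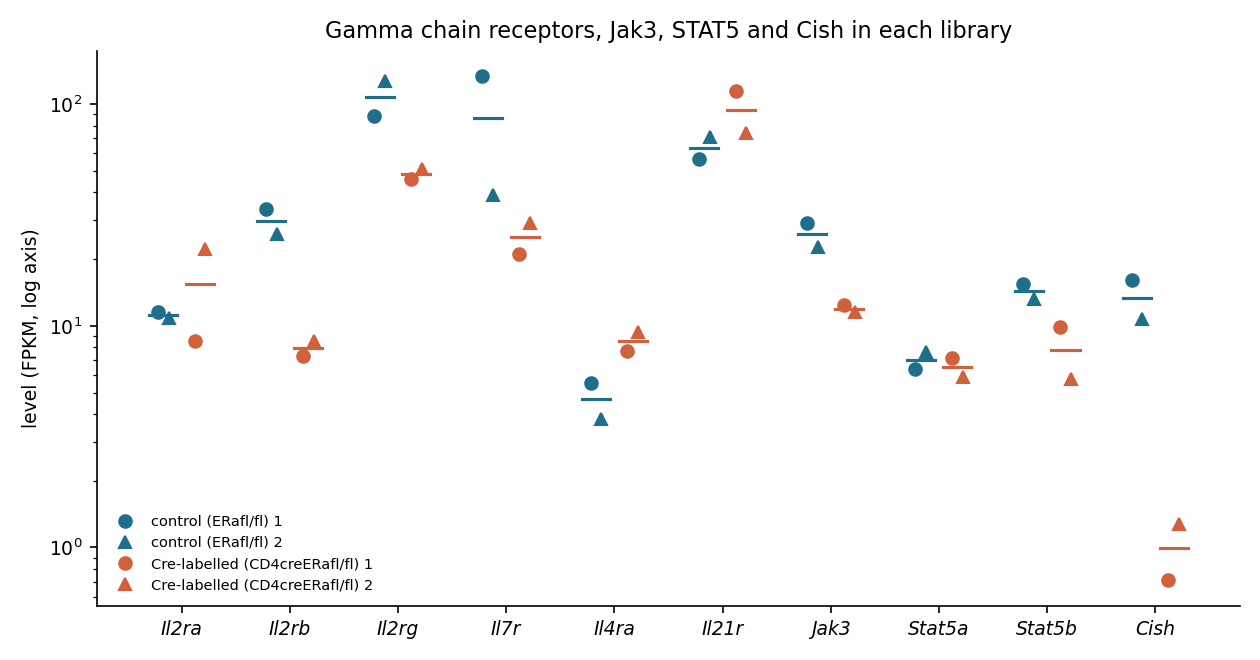
Level of each of the 10 genes (FPKM, log axis) in the 4 libraries. Circles are library 1 and triangles library 2 of a group, and horizontal bars are group means. Cish lies at 0.71 and 1.28 FPKM in the Cre-labelled libraries against 16.1 and 10.7 in controls, while the values of Stat5a overlap.

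The shared gamma chain Il2rg (NCBI gene 16186, chromosome X, 101264385 to 101268255) had 88.4 and 127 FPKM in controls 1 and 2 and 45.8 and 50.9 in the Cre-labelled libraries. Both of the latter lay below both controls, with the lower control 1.74 times the higher of them. The group means were 108 ± 27.5 and 48.4 ± 3.59 FPKM (SD, n = 2), and the log2 fold change was -1.12 ± 0.31 (SE, adjusted p = 0.2 in limma). Il2rg shares 728 exon bases with Gm20489 on the same strand, so its value may hold fragments of that gene.

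The IL-2 receptor chains differed from each other. Il2rb (NCBI gene 16185, chromosome 15, 78479256 to 78511621), the signalling β chain of the IL-2 and IL-15 receptors, had 33.7 and 26.0 FPKM in the control libraries and 7.33 and 8.56 in the Cre-labelled libraries. The lower control was 3.03 times the higher of the other group, and the ratio of means was 3.76. These values rest on an estimated 99.2, 72.8, 15.5 and 20.1 fragments. From summed fragments the ratio of levels was 3.71, with a counting interval of 2.58 to 5.48 (95%, exact, counting error only). Its log2 fold change was -1.78 ± 0.36 (SE, adjusted p = 0.144 in limma). With voom weights taken from the estimated fragments, an alternative added after the data were seen, Il2rb fell (log2 fold change -1.88, adjusted p = 0.0428 in limma), the only one of the 10 to pass, where 0.475% of 12433 genes were called lower and 1.34% higher.

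NK cells also express Il2rb at a high level. Of 12 NK cell and innate lymphocyte markers, 7 were higher and 2 lower without overlap in the Cre-labelled libraries, with summed levels of 91.2 and 120 FPKM in the control libraries and 113 and 235 in the Cre-labelled ones. Ncr1, an activating receptor of NK cells, had 8.25 and 19.8 FPKM in the Cre-labelled libraries, and both controls list it at 0. Gzma, a granzyme of cytotoxic cells, had 0 and 12.3 FPKM in controls against 32.7 and 94.3. The 2 lower markers were Nkg7, a cytotoxic granule protein, with 49.0 and 47.6 FPKM in controls against 5.05 and 25.0, and Eomes, a transcription factor of NK and memory T cells, with 27.1 and 33.3 against 16.5 and 17.5. The markers thus went both ways, and their part in the Il2rb values was not tested.

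Il2ra (NCBI gene 16184, chromosome 2, 11642792 to 11693194) encodes the α chain, CD25, of regulatory and activated T cells. It had 11.5 and 10.8 FPKM in the control libraries and 8.58 and 22.2 in the Cre-labelled libraries, so the controls lay between the other 2 values. The log2 fold change was 0.29 ± 0.52 (SE, adjusted p = 0.812 in limma), and it was -0.34 without the second Cre-labelled library. The level of Il2ra divided by that of Il2rb in the same library was 0.341 and 0.417 in controls and 1.17 and 2.59 in the Cre-labelled ones. The listed level of the α chain was thus below that of the β chain in controls and above it in the Cre-labelled libraries. In the first Cre-labelled library the ratio rests on an estimated 19.1 fragments of Il2ra and 15.5 of Il2rb, so the order there is uncertain. Some 50-base runs of Il2ra are shared with transcripts of 35 other genes, at most 110 bases with any of them.

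Il7r (NCBI gene 16197, chromosome 15, 9506159 to 9529941), the IL-7 receptor α chain, was measured at 134 and 38.7 FPKM in controls 1 and 2, and at 21.0 and 29.1 in the Cre-labelled libraries. Control 1 stood 3.46 times above control 2, while control 2 was only 1.33 times the higher library of the other group. The log2 fold change was -1.51 ± 0.61 (SE, adjusted p = 0.318 in limma). It was -0.63 without control 1 and -2.39 without control 2, so its size depends on which control is used. Control 1 was also the library with the lowest macrophage and red cell marker levels, and whether this bears on Il7r was not tested. Transcripts of 91 other genes share 50-base runs with Il7r, at most 65 bases with any of them.

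The receptor chains for IL-4 and IL-21 were higher rather than lower. Il4ra (NCBI gene 16190, chromosome 7, 125552271 to 125579474), the IL-4 receptor α chain of lymphoid and myeloid cells, had 5.54 and 3.78 FPKM in the control libraries and 7.72 and 9.36 in the Cre-labelled libraries. The groups did not overlap, and the ratio of means was 1.83. The log2 fold change was 0.77 ± 0.43 (SE, adjusted p = 0.444 in limma), and each library held an estimated 13.3 to 27.6 of its fragments. Il4ra shares 571 exon bases with Gm44876 on the opposite strand.

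Il21r (NCBI gene 60504, chromosome 7, 125603252 to 125634397), the IL-21 receptor, had 56.6 and 70.9 FPKM in the control libraries and 115 and 74.2 in the Cre-labelled libraries. The higher control and the lower library of the other group lay within 1.05-fold of each other. Its log2 fold change was 0.54 ± 0.34 (SE, adjusted p = 0.493 in limma), and quantile scaling of the libraries made the groups overlap. Il21r was the most abundant of the 10 in the Cre-labelled libraries, at 94.4 ± 28.5 FPKM (SD, n = 2), and the third in controls, at 63.7 ± 10.1. It shares 50-base runs with transcripts of 13 other genes, at most 64 bases with any of them.

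Jak3 (NCBI gene 16453, chromosome 8, 71676383 to 71690577), the kinase bound to the gamma chain, had 29.1 and 22.7 FPKM in the control libraries and 12.4 and 11.5 in the Cre-labelled libraries. The groups did not overlap, and the ratio of means was 2.16, against 2.23 for its receptor partner Il2rg. Within libraries Jak3 relative to Il2rg was 0.329 and 0.178 in controls and 0.27 and 0.226 in the Cre-labelled ones. That ratio overlapped between groups. Its log2 fold change was -1.04 ± 0.35 (SE, adjusted p = 0.248 in limma). Jak3 shares 404 exon bases on the same strand with Insl3, which was listed at 10.3 and 3.96 FPKM in the control libraries and 10.7 and 1.28 in the Cre-labelled ones.

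Stat5b, which with Stat5a carries the signal to the nucleus, had 15.4 and 13.2 FPKM in the control libraries and 9.84 and 5.77 in the Cre-labelled libraries. Both of the latter lay below both controls, with a log2 fold change of -0.83 ± 0.42 (SE, adjusted p = 0.405 in limma). Stat5a had 6.39 and 7.63 FPKM in the control libraries and 7.16 and 5.89 in the Cre-labelled ones. Its groups overlapped, with a log2 fold change of -0.09 ± 0.41 (SE, adjusted p = 0.932 in limma), and its sign turned when the second control or the second Cre-labelled library was left out. The ratio of Stat5b to Stat5a was 2.41 and 1.74 in controls and 1.37 and 0.98 in the Cre-labelled ones. These ratios did not overlap between groups, but they rest on the estimated split between transcripts that share the sequence printed above, and on 12.4 to 19.1 estimated fragments of Stat5a.

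Cish (NCBI gene 12700, chromosome 9, 107296659 to 107302784), the SH2 protein induced by STAT5 that dampens cytokine signalling, showed the largest difference of the 10. It had 16.1 and 10.7 FPKM in the control libraries and 0.71 and 1.28 in the Cre-labelled libraries. The lower control was 8.38 times the higher of the other group. The log2 fold change was -2.84 ± 0.48 (SE, adjusted p = 0.123 in limma), and 0.706% of tested genes had a lower one. The values correspond to an estimated 31.4 and 20.0 fragments in controls and about 1 and 2 in the Cre-labelled ones, and the ratio of levels from summed fragments was 13.2 with a counting interval of 4.27 to 66.2 (95%, exact). With any single library left out, the log2 fold change lay between -3.11 and -2.57. Cish shares 479 exon bases with Gm17041 on the opposite strand.

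The order of the levels differed between the groups. In controls it ran from Il2rg through Il7r, Il21r, Il2rb, Jak3, Stat5b, Cish, Il2ra and Stat5a to Il4ra. Neighbours in that order overlapped between libraries except at 4 steps: Il21r over Il2rb, Jak3 over Stat5b, Il2ra over Stat5a, and Stat5a over Il4ra. In the Cre-labelled libraries it ran from Il21r through Il2rg, Il7r, Il2ra, Jak3, Il4ra, Il2rb, Stat5b and Stat5a to Cish. There the steps from Il21r to Il2rg, from Il2rg to Il7r, from Jak3 to Il4ra and from Stat5a to Cish were free of overlap. Cish thus stood seventh in controls and last in the Cre-labelled ones.

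Because T cell markers were lower in the Cre-labelled libraries, the comparison was repeated with each library divided by its T cell marker level. The median log2 fold change then went from -0.07 to 1.93 over all genes, and from -0.94 to 1.27 over the 10. On that scale 9 of the 10 genes were higher without overlap, against 83.2% of all genes, and 6 rose at an adjusted p under 0.05, against 66.9% of all genes in limma. Called lower were 0.326% of all genes and 0 of the 10. Those that rose were Il4ra (log2 fold change 2.75, adjusted p = 0.00598), Il21r (2.86, adjusted p = 0.00641), Il2ra (2.45, adjusted p = 0.00865), Stat5a (1.94, adjusted p = 0.014), Jak3 (1.19, adjusted p = 0.0354) and Il2rg (1.21, adjusted p = 0.0443). Of these, Il4ra, Il21r and Il2ra lay above the median of all genes, Stat5a at it, and Il2rg and Jak3 below it.

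Cish was the only one of the 10 that stayed lower without overlap after this scaling, as 1.55% of all genes did. Its log2 fold change there was -1.10 ± 0.49 (SE, adjusted p = 0.0888 in limma), and it did not pass. Il2rb had 0.44 ± 0.37 (SE), Il7r 0.80 ± 0.52 (SE) and Stat5b 1.32 ± 0.49 (SE), and none of these passed (adjusted p = 0.331, 0.215 and 0.055 in limma). The scaling divides all values of a library by 1 factor, so the ratios between genes within a library are the same on both scales.

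**Figure D2:**
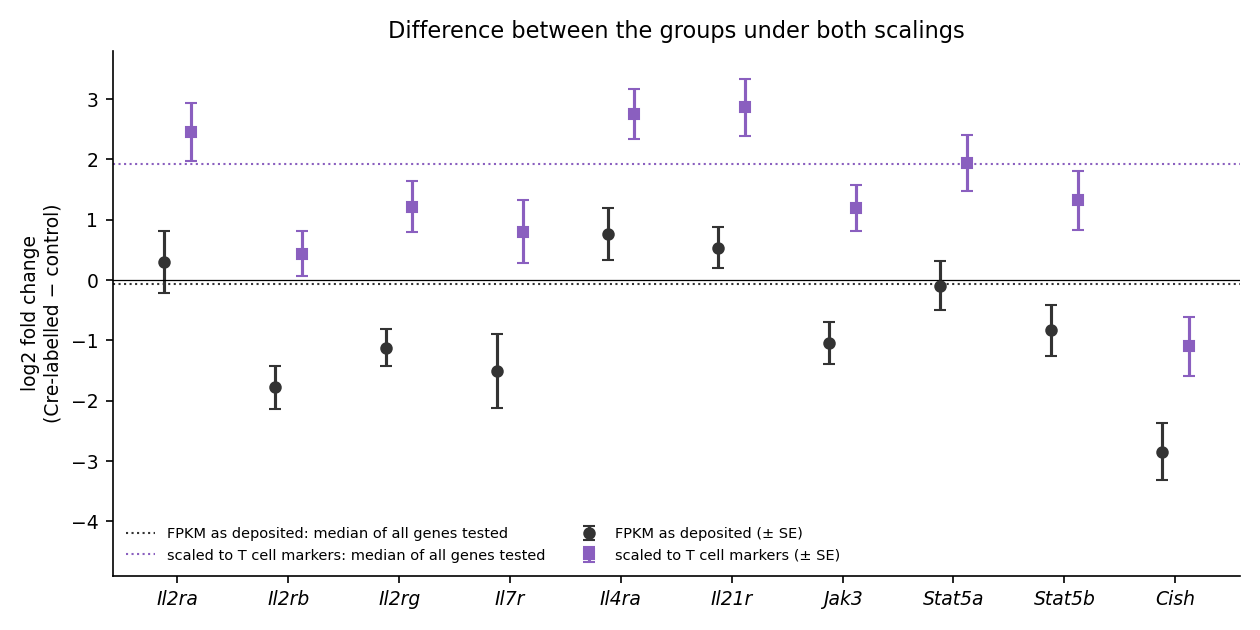
Log2 fold change (Cre-labelled minus control) of the 10 genes with its standard error, for FPKM as deposited (circles) and after division by the T cell marker level (squares). Dotted lines are the medians of all genes tested, -0.07 and 1.93, and only Cish lies below 0 on both scales.

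Among other genes of the pathway, 0 of 41 tested passed an adjusted p under 0.05 in limma, with 8 at an unadjusted p under 0.05. Lower without overlap were 13 (31.7%) and higher 11 (26.8%), near the 25.7% and 23.2% of all genes, and their median log2 fold change was -0.08, against -0.07. The counts for single lists below are of the same kind and have the same background. Of the cytokines, 4 of 8 were tested. Il21, made by helper T cells, had 4.22 and 5.44 FPKM in the control libraries and 0.66 and 0.56 in the Cre-labelled libraries (log2 fold change -1.85, adjusted p = 0.202 in limma), on a sum of 12 and 1 estimated fragments. On the deposited scale Il21 was therefore lower in the libraries in which its receptor Il21r was higher. With the T cell marker scaling the groups overlapped for Il21 (log2 fold change -0.39, adjusted p = 0.591 in limma). Il15, made by myeloid and stromal cells, had 1.13 and 1.18 FPKM against 4.71 and 5.64 (adjusted p = 0.243 in limma), on about 1 estimated fragment in each control and 2.9 and 3.87 in the others. Il7, a product of stromal cells, was near 1 FPKM in both controls, and the Cre-labelled libraries list it at 0. It was not tested, and its control values rest on an estimated 1.88 and 1.86 fragments.

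Of the 4 other receptor chains, Il13ra1, the partner of Il4ra in the second IL-4 receptor of non-lymphoid cells, had 0.38 and 0.40 FPKM in the control libraries and 4.25 and 5.72 in the Cre-labelled libraries (adjusted p = 0.181 in limma). The control values rest on about 1 fragment each. Both chains of that receptor were thus higher without overlap in the Cre-labelled libraries, as were 23.2% of all genes. Which cells they came from was not tested. Il9r, the IL-9 receptor, had 17.1 and 2.43 FPKM against 1.29 and 0.58 (adjusted p = 0.336 in limma). With the T cell marker scaling its groups overlapped (log2 fold change -0.43, adjusted p = 0.646 in limma). Crlf2, the TSLP receptor chain, had 10.4 and 9.09 FPKM against 19.3 and 14.9 (adjusted p = 0.398 in limma).

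Of 7 other Janus kinases and STATs, 4 were lower and 1 higher without overlap, and their median log2 fold change was -0.16. Stat4, which transmits IL-12 in Th1 cells, had 18.6 and 22.5 FPKM in the control libraries and 9.68 and 8.69 in the Cre-labelled ones (log2 fold change -1.07, adjusted p = 0.248 in limma). Jak1, the partner kinase of Jak3, had 60.5 and 41.9 FPKM against 38.8 and 28.1. Jak3 relative to Jak1 was 0.48 and 0.541 in controls and 0.32 and 0.41 in the Cre-labelled ones.

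Of 16 negative regulators, 5 were higher and 4 lower without overlap, with a median log2 fold change of 0.10. Ptpn6, the phosphatase SHP-1 of blood cells, had 43.9 and 51.5 FPKM in the control libraries and 128 and 117 in the Cre-labelled libraries (log2 fold change 1.34, adjusted p = 0.149 in limma). Socs4 had 7.32 and 9.78 FPKM in controls, on an estimated 35.4 and 45.2 fragments, and was listed at 0 in both other libraries (adjusted p = 0.12 in limma). With voom weights Socs4 fell (adjusted p = 0.0305 in limma), and it also fell with the T cell marker scaling (log2 fold change -2.25, adjusted p = 0.0294 in limma).

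Of 13 STAT5 target genes beside Cish, 4 were lower and 2 higher without overlap, and the median log2 fold change was -0.16. Socs1, a STAT-induced inhibitor of Janus kinases, had the lowest fold change of these. It had 7.15 and 7.50 FPKM in controls, was listed at 0 in the first Cre-labelled library and had 1.49 in the second (log2 fold change -2.40, adjusted p = 0.185 in limma). From summed estimated fragments (28 and 2) the ratio of levels was 10.9, with a counting interval of 2.74 to 94.3 (95%, exact). With the T cell marker scaling the groups overlapped for Socs1 (log2 fold change -1.08, adjusted p = 0.281 in limma). Myc, the growth factor-induced regulator, had 10.2 and 7.52 FPKM against 17.5 and 15.7 (adjusted p = 0.346 in limma), and Pim1, a survival kinase, 58.6 and 44.4 against 68.0 and 76.3 (adjusted p = 0.486 in limma).

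**Figure D3:**
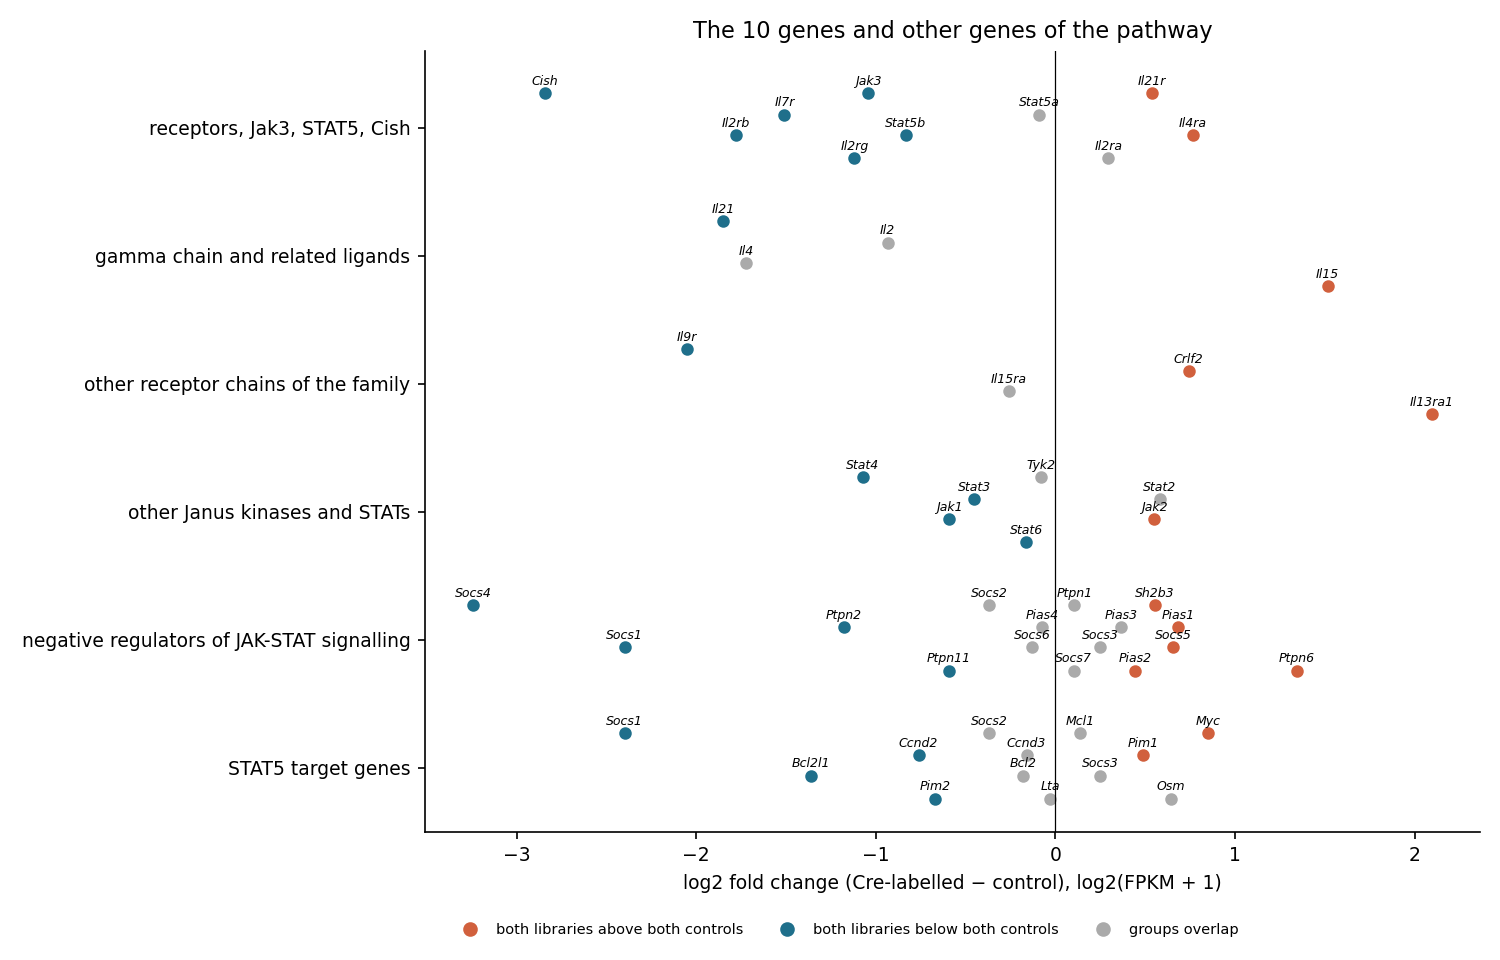
Log2 fold change (Cre-labelled minus control) of the 10 genes in the top line and of the tested genes of 5 pathway lists below it. Blue points were below both controls in both libraries, orange points above both, and grey points overlapped; vertical offsets only separate labels. Cish and Socs1 lie far to the left of the other STAT5 target genes.

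The genes whose pattern over the 4 libraries came nearest were sought among 5363 genes with a mean of at least 10 FPKM and no value of 0, by Euclidean distance of centred log2(FPKM + 1) values. For Il7r they were Ccsap (distance 0.165), Gimap5 (0.324) and Btla (0.415). All 3 were highest in control 1, as Gimap5 shows with 37.2 and 12.2 FPKM in the control libraries and 4.42 and 6.93 in the Cre-labelled ones. For Il2rb they were Slain1os (0.113), Arhgef18 (0.163) and Scamp3 (0.181), and for Il4ra Tctex1d4 (0.11), BC037034 (0.133) and Veph1 (0.159). With 4 libraries, a small distance is a description only.

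The other cell type markers give the setting in which these levels were measured. Among T cell markers, Cd247 had 213 and 237 FPKM in controls against 102 and 75.9 in the Cre-labelled libraries, and Cd3d 177 and 146 against 124 and 70.9. Among macrophage markers, Lyz2 had 50.7 and 162 FPKM against 548 and 1304, and Hmox1 7.94 and 41.7 against 399 and 453. Adgre1, Mertk, Fcgr1, Marco and Cd14 were listed at 0 in control 1. The dendritic cell list summed to 124 and 1011 FPKM in the control libraries and 3499 and 3398 in the Cre-labelled ones, led by Cd74 and H2-Ab1. In the Cre-labelled libraries Cd74 had 2406 and 2251 FPKM of this and H2-Ab1 877 and 905. Of this list, 7 genes were higher and 1 lower without overlap. The lower one was Xcr1, with 73.35 and 62.8 FPKM in controls against 46.7 and 48.5. Neutrophil markers, led by S100a9 and S100a8, summed to 2074 and 4348 against 5770 and 7731. B cell markers, led by Cd22 and Cd79b, summed to 52.4 and 77.1 against 207 and 86.2. Nearly all of this was Cd22, with 51.7 and 65.9 FPKM in controls against 199 and 76.3. Cd79b overlapped between groups (0 and 8.91 FPKM against 6.76 and 4.55), and Ms4a1 was listed at 0 in 3 libraries. Red cell markers, led by Hbb-bs and Hba-a1, were low in control 1 alone (216 FPKM against 8218, 6525 and 5116), and Nkg7 and Gzma led the NK list.

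**Figure D4:**
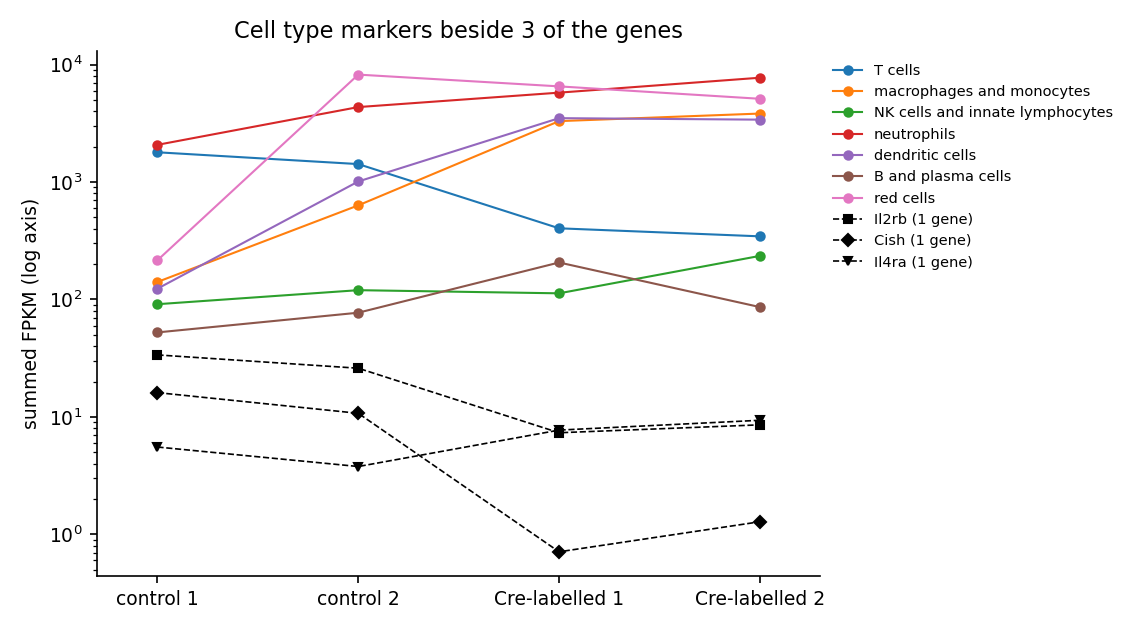
Summed FPKM (log axis) of 7 cell type marker lists in the 4 libraries, with Il2rb, Cish and Il4ra as single genes (dashed black). Lines join values of the same list and imply no order of the libraries. Summed T cell markers, Il2rb and Cish are lower in the Cre-labelled libraries, and the macrophage and dendritic cell sums and Il4ra are higher. The dendritic cell sum is mostly Cd74 and H2-Ab1, except in control 1, where Xcr1 is its largest part (73.35 FPKM).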

How the data were processed

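The authors deposited 1 table of gene-level FPKM values for the 4 libraries. The submitters' processing notes name HISAT, Bowtie2, RSEM and mm10 with no version; whether counting used strand is not stated there. RSEM assigns shared fragments by estimate, so a value of 0 is written as listed at 0. Gene identifiers matched GRCm38.p6 for 16183 of 16230 genes, and 23 symbols turned into dates were restored.

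The 12896 genes whose mean reached 1 FPKM entered limma 3.58.1 (R 4.3.3) as log2(FPKM + 1). The model held group alone and let the prior variance follow mean level, p-values were two-sided and adjusted by Benjamini-Hochberg over all genes, and genes under 0.05 were called. The procedure was tested on simulated data. A single gene allows no two-sided exact permutation p below 0.33. Fragments were estimated from 10348 genes with 1 transcript of over 800 bases, whose FPKM times length (less 40 bases) falls in steps: 78.5% to 80.5% of low values were no further than 0.2 fragments from a whole number, and 39.2% to 40.2% after random displacement. For genes with several transcripts the mean length was used.

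The 10 genes and all lists were chosen with earlier results of these data known. Genes named are the 10; per pathway list, called genes, and where there was none, the 2 lowest unadjusted p-values and the most abundant gene; per marker list, the 2 most abundant; and the 3 nearest patterns of Il7r, Il2rb and Il4ra. Il7, Ncr1, Eomes, Ms4a1, Txk, Xcr1 and the macrophage markers listed at 0 were named after their values were seen. A further pathway gene is not reported here. Libraries were grouped by genotype label. Alternatives were another pseudocount, other filters, no trend, 3 scalings, a replicate block and each library left out.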

Additional observations from a re-analysis of the deposited data

How the results depend on the processing

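Of the 10 genes, 0 were called under the other pseudocount, filters, trend, quantile and median-ratio scaling, the replicate block or any left-out library, with smallest adjusted p-values of 0.112 to 0.552 in limma. Genes called higher and lower over the table, 2 and 5 as reported, were 0 and 0 with a pseudocount of 0.1, no filter, no trend, the replicate block or any 1 library left out (1136 to 2190 at an unadjusted p under 0.05), 0 and 4 at a mean FPKM of at least 5, 1 and 5 with quantile scaling, 8629 and 42 with T cell marker scaling, and 167 and 59 with voom weights. Of the 10 genes, 1 was called lower with voom weights, and 6 were called higher with T cell marker scaling, where 9 were higher and 1 lower without overlap. With quantile scaling 1 was higher without overlap. Of the 41 pathway genes, 31 were called with T cell marker scaling, 30 higher and 1 (Socs4) lower, where 66.9% of all genes were called higher, and 1 (Socs4, lower) with voom weights.

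The median log2 fold change of the 10 was 1.27 with T cell marker scaling and ranged from -1.07 to -0.68 with 1 library left out. T cell marker scaling reversed Il2rb (0.44), Il2rg (1.21), Il7r (0.80), Jak3 (1.19), Stat5a (1.94) and Stat5b (1.32), by construction, since it raises both Cre-labelled libraries against controls. Left-out libraries reversed Il2ra (lowest -0.34, highest 0.93) and Stat5a (-0.21 to 0.03), with the cause not tested. The other 8 genes kept their direction with each library left out. The labels tie no replicate numbers together, deviations of same-numbered libraries correlated at -0.002 over genes, and the replicate block changed no call among the 10. Depth limits Cish, Socs1, Socs4, Il21, Il9r and Il13ra1, which rest on 0 to 4 fragments per library in 1 group. It also limits Il15, Il7 and Il4, which do so in both.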

Other observations

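The controls differed from each other in several cytokine receptor genes by more than the Cre-labelled libraries did. Il7r was 3.46 times as high in control 1 as in control 2, while the first Cre-labelled library had 0.72 of the second. Il9r had 17.1 FPKM in control 1 and 2.43 in control 2, and 1.29 and 0.58 in the other group, on an estimated 37.3, 5.05, 2.02 and 1.01 fragments. Il4 had 9.92 FPKM in control 1 alone, on about 3.92 fragments, and was listed at 0 in the other 3 libraries. In contrast, Il2ra spread more in the Cre-labelled libraries, where the second had 22.2 FPKM and the first 8.58. Il2rg went the other way from Il7r, with 0.69 times as much in control 1 as in control 2, so Il7r relative to Il2rg was 1.52 in control 1 and 0.304 to 0.572 in the other 3 libraries.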
